A study of Bos taurus with 8 samples.

Results

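The genes described here are 6 glutathione transferases of the cytosol and the membranes with a known bovine probe, the modifier subunit of the enzyme that starts glutathione synthesis, and 1 metallothionein, measured in rumen papillae of cattle on a low-concentrate (LC) and a high-concentrate (HC) diet. The list held 10 genes, namely GSTA1, GSTM1, GSTM3, GSTP1, GSTO1, MGST1, MGST3, GCLM, MT1E and MT2A, and its rule uses gene function and no measured value, although earlier results of these data were known when it was drawn up. A gene counted as measured when the RefSeq accession of a probe on the array belonged to it in the bovine gene table. By this rule 8 of the 10 genes were measured, among 7788 named genes in all, each by 1 probe with 2 spots. No probe matched MGST1 or MT1E, and both are absent from what follows. GSTM1 and GSTP1 were matched through a synonym, since the gene table lists the accessions NM_175825 and NM_177516 under the symbols LOC327709 and LOC281806. The table also holds a second gene, with the symbol GSTP1 itself, next to LOC281806, and no probe was matched to it.

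RNA came from rumen papillae, the finger-like folds of the rumen lining, of 4 female ruminally cannulated Holstein cattle. Each animal received both diets in a crossover, with concentrate making up 40% of dry matter on LC and 70% on HC, and papillae were taken on day 21 of each period, 4 h after feeding. In period 1, cows 1 and 2 received LC and cows 3 and 4 received HC, and the diets were exchanged in period 2, so that each diet has 4 arrays and each combination of diet and period has 2. The 4 arrays of a period shared a slide, and slide and period cannot be told apart. No genotype or treatment other than the diet separates the groups, all animals carried a rumen cannula, and their age is not given in the labels. The deposited table of normalised values and the scanner output exchange the names of cows 1 and 2 on both diets, which leaves the diets and the pairing as they are but not the names of these 2 cows. The names of the scanner output are used here.

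Glutathione transferases join glutathione, a small thiol-containing peptide, to reactive compounds, which makes them more soluble and marks them for export. Glutathione itself is made by glutamate-cysteine ligase, whose catalytic subunit is helped by GCLM, and then by glutathione synthetase. Metallothioneins are small cysteine-rich proteins that bind zinc and copper, and their genes respond to zinc through the transcription factor MTF1. Many glutathione genes are targets of NRF2 (gene NFE2L2), a transcription factor that KEAP1 holds back until electrophiles or oxidants release it. The rumen epithelium is a stratified squamous layer that is exposed to fermentation products.

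All 8 measured genes were well above background, by the test of the scanner software, on all 8 arrays, and no spot of theirs was saturated. Over the arrays, 76.9 to 81.2% of the 21475 probes were well above background. The labelled tissue was set against markers of squamous epithelium. Of 17 such markers 11 had a probe, and 10 of these were well above background on all 8 arrays, with TP63 above it on none. The mean of the squamous list was 13.69 to 13.91 over the arrays (normalised log2 signal). Markers of stroma, smooth muscle, endothelium and leukocytes were also measured, and papillae are mixed tissue, in which fewer cells of a type and less RNA per cell cannot be told apart. None of the 37 markers with a probe passed the call rule for diet given below.

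None of the 8 measured genes passed the test for diet. A probe was called when its fold change was at least 1.5 with an unadjusted p under 0.05 in the limma fit of diet, period and their interaction, where the thresholds and the terms are those of the study's methods and the moderated fit is not. Without moderation, as in the general linear model of the methods, 105 probes and 0 members were called, at unchanged log2 differences. This rule called 0 of the 8 members and 198 of all 21475 probes (0.922%), of which 106 were higher on HC (0.494%) and 92 lower (0.428%). After Benjamini-Hochberg adjustment none of the probes (0%) was under 0.05 for diet, and the lowest adjusted p among the members was 0.9995. Without the fold limit, 0 of the 8 members and 784 probes (3.65%) had an unadjusted p under 0.05. In no member did the arrays of the diets separate without overlap, which 1.6% of all probes did, and in none did all 4 cows move the same way, which 11% did. The 8 log2 differences between the diets lay between -0.19 and 0.05, 3 of them above 0 and 5 below, with a median of -0.04 against -0.00 over all probes. A share of 0 of 8 is close to what these backgrounds would give, and the intervals below carry more than the count.

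**Figure D1:**
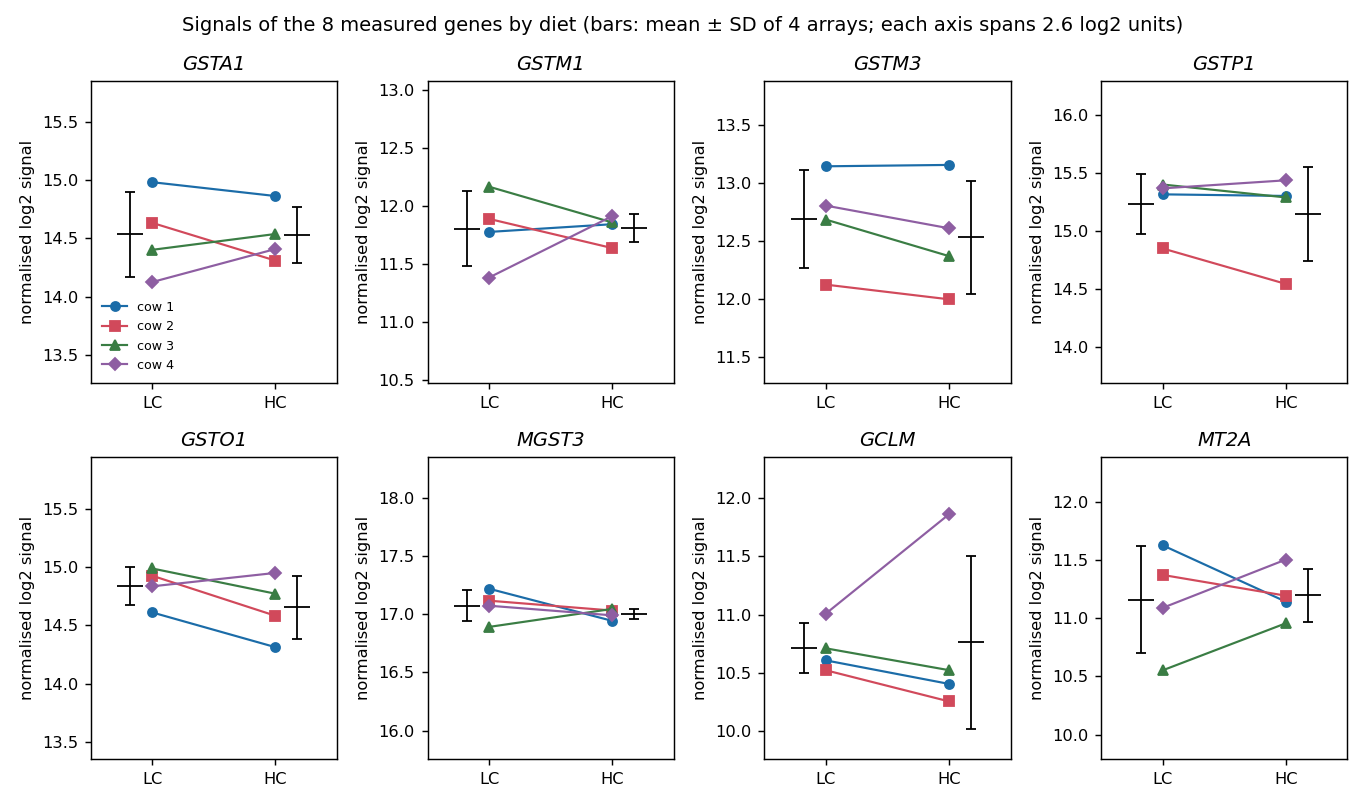
Normalised log2 signal (y axis) of each measured gene on LC and HC (x axis), with a line for each of the 4 cows and bars for the mean ± SD of the 4 arrays of a diet. The diets overlap in all 8 panels, and the cow 4 point of GCLM on HC, at 11.86, stands above its other 7 values of 10.25 to 11.01.

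Of the cytosolic transferases, GSTA1 (NM_001078149) is the alpha class enzyme, which also acts on lipid peroxides. On LC its normalised log2 signal was 14.98, 14.63, 14.40 and 14.12 in cows 1 to 4, and on HC it was 14.86, 14.31, 14.54 and 14.41. Cow 1 had the highest value on both diets, and the LC values spanned all 4 HC values. The diet means were 14.54 ± 0.36 on LC and 14.53 ± 0.24 on HC (SD, n = 4 each), a log2 difference (HC minus LC) of -0.01 with an SE of 0.16 (limma p = 0.973, exact permutation p = 1). GSTA1 was lower on HC in cows 1 and 2, by a log2 difference of -0.12 and -0.32, and higher in cows 3 and 4, by 0.14 and 0.28. Its diet difference thus had opposite signs in the pairs of cows that met the diets in opposite order.

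GSTM1 (NM_175825) and GSTM3 (NM_001046560) are mu class enzymes, and their genes lie close together in the reference, with LOC615514 between them and GSTM2 behind GSTM1. The GSTM1 signal was 11.78, 11.89, 12.16 and 11.38 on LC and 11.84, 11.64, 11.86 and 11.91 on HC in cows 1 to 4. Both the highest and the lowest value were on LC, in cows 3 and 4, and the HC values lay between them. The means were 11.80 ± 0.32 and 11.81 ± 0.12 (SD, n = 4), with a log2 difference of 0.01 and an SE of 0.18 (limma p = 0.962, exact permutation p = 0.943). The 2 spots of the GSTM1 probe differed by 0.13 to 0.42 on the log2 scale within an array, the largest spot difference among the members.

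The GSTM3 signal was 13.14, 12.12, 12.68 and 12.80 on LC and 13.15, 12.00, 12.37 and 12.61 on HC in cows 1 to 4. The cows kept the same order on both diets, with cow 1 highest, then cow 4, cow 3 and cow 2. The means were 12.69 ± 0.42 and 12.53 ± 0.48 (SD, n = 4), with a log2 difference of -0.16 and an SE of 0.32 (limma p = 0.645, exact permutation p = 0.657). Within cows the differences were 0.01, -0.13, -0.31 and -0.19, and with the cow as a block the SE fell to 0.09 (limma adjusted p = 0.847). The pattern of GSTM3 over the 8 arrays had a Pearson r of -0.00 with that of its neighbour GSTM1, given as a description.

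GSTP1 (NM_177516) is the pi class enzyme, which is common in epithelia. Its signal was 15.32, 14.85, 15.40 and 15.37 on LC and 15.30, 14.54, 15.29 and 15.44 on HC in cows 1 to 4. Cow 2 had the lowest value on both diets, and the other 3 cows lay within 15.29 to 15.44 on all 6 of their arrays. The means were 15.23 ± 0.26 and 15.14 ± 0.40 (SD, n = 4), with a log2 difference of -0.09 and an SE of 0.20 (limma p = 0.661, exact permutation p = 0.657).

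GSTO1 (NM_001075214) is the omega class enzyme, which has reductase activity towards oxidised thiols and dehydroascorbate. Its signal was 14.61, 14.93, 14.99 and 14.84 on LC and 14.31, 14.58, 14.77 and 14.95 on HC in cows 1 to 4. Cow 1 was lowest on both diets, and the diets overlapped. The means were 14.84 ± 0.17 and 14.66 ± 0.27 (SD, n = 4), with a log2 difference of -0.19, the largest of the members, and an SE of 0.12 (limma p = 0.179, exact permutation p = 0.257). GSTO1 was lower on HC in cows 1, 2 and 3, by a log2 difference of -0.30, -0.34 and -0.22, and higher in cow 4, by 0.12.

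MGST3 (NM_001035046) encodes a membrane enzyme with glutathione transferase and peroxidase activity. Its signal was 17.22, 17.12, 16.89 and 17.07 on LC and 16.94, 17.03, 17.05 and 16.99 on HC in cows 1 to 4. The HC arrays, from 16.94 to 17.05, lay inside the range of the LC arrays. The means were 17.08 ± 0.14 and 17.00 ± 0.05 (SD, n = 4), with a log2 difference of -0.07 and an SE of 0.09 (limma p = 0.454, exact permutation p = 0.371). Its SD over the 8 arrays, 0.10, was the smallest of the members.

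GCLM (NM_001038143) encodes the modifier subunit of glutamate-cysteine ligase and is a known NRF2 target. Its signal was 10.61, 10.52, 10.71 and 11.01 on LC and 10.40, 10.25, 10.52 and 11.86 on HC in cows 1 to 4. Cow 4 was highest on both diets, and its HC array stood well apart from the other 7. The means were 10.71 ± 0.21 and 10.76 ± 0.74 (SD, n = 4), with a log2 difference of 0.05 and an SE of 0.29 (limma p = 0.870, exact permutation p = 0.971). GCLM was lower on HC in cows 1, 2 and 3, by a log2 difference of -0.20, -0.27 and -0.19, and higher in cow 4, by 0.85. With the HC array of cow 4 left out, the diet difference was -0.29 (limma adjusted p = 0.986), the opposite sign. The sign was also reversed, at -0.03, without the LC array of cow 3.

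MT2A (NM_001075140) is the measured metallothionein, in a cluster with MT1A, MT3 and MT4 in the reference. Its signal was 11.63, 11.37, 10.55 and 11.09 on LC and 11.14, 11.19, 10.96 and 11.51 on HC in cows 1 to 4. The highest and the lowest value were both on LC. The means were 11.16 ± 0.46 and 11.20 ± 0.23 (SD, n = 4), with a log2 difference of 0.04 and an SE of 0.18 (limma p = 0.834, exact permutation p = 0.914). As in GSTA1, the sign differed by cow, with -0.48 and -0.18 in cows 1 and 2 and 0.40 and 0.42 in cows 3 and 4. The metallothioneins and the transferases of 1 class resemble each other in sequence, and whether a probe also binds a near copy was not tested.

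A p above the threshold does not show that the diets gave the same level, and the intervals bound what could have been missed. The 95% interval of the diet difference lay within 1.5-fold either way in 6 of the 8 members, against 68.1% of all probes and 79% of those above background throughout. It was narrowest for MGST3, from -0.29 to 0.15 (log2), and reached past 1.5-fold for GSTM3, from -0.94 to 0.62, and GCLM, from -0.65 to 0.75. With the cow as a block, 8 of the 8 members lay within it, against 75.8% of all probes and 86.7% of those above background throughout. The fit with the block leaves fewer residual degrees of freedom than the main fit. The interval of GSTM3 then ran from -0.39 to 0.08 and that of GCLM from -0.47 to 0.57, or 0.721-fold to 1.48-fold. For these genes a diet effect of more than 1.5-fold is thus outside the moderated interval with the block, for GCLM only just. A smaller effect is outside it only where it passes the limits of the gene's own interval. Effects within those limits could have been missed. The limits rest on the moderation of limma, which draws the variance of each probe towards a common value. GCLM had the largest SD of the 4 cow differences among the members, 0.54. Its interval without moderation was not computed, so a larger effect on GCLM is not excluded. An exact test of 4 against 4 arrays has a smallest p of 0.0286. This test and the main limma fit treat the arrays as independent, although each cow gave an array on both diets. The fit with the block uses the spread within cows. All of these p values come from the same 4 animals.

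**Figure D2:**
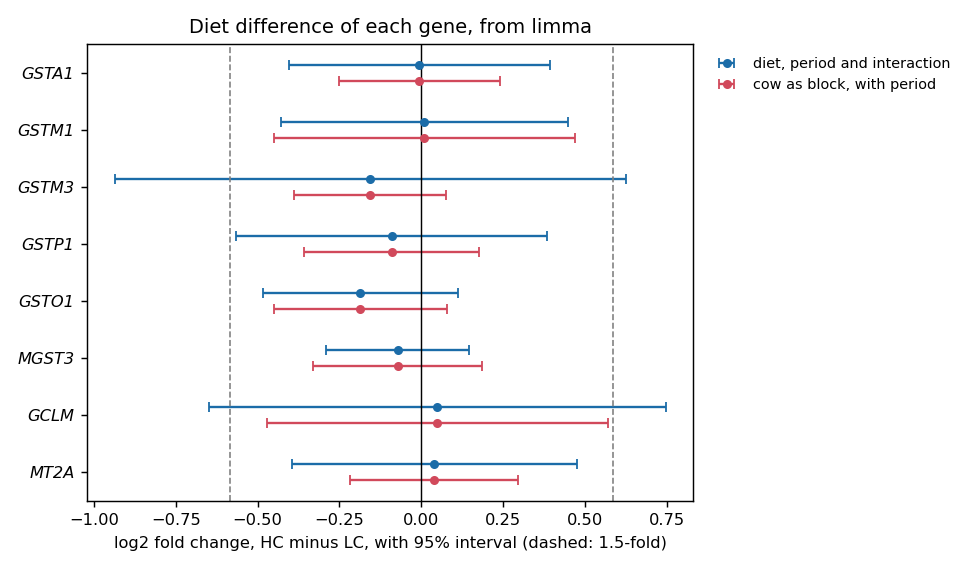
Log2 difference HC minus LC of each measured gene (x axis) with its 95% interval, without and with the cow as a block; the lines mark 1.5-fold either way. GSTM3 runs from -0.94 to 0.62 without the block and from -0.39 to 0.08 with it.

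In several members the values followed the cow. A limma F test of cow, with diet and period in the fit, was added after the values had been seen, and gave an unadjusted p under 0.05 for 4 of the 8 members, against 16.3% of all probes and 15.4% of those above background throughout. They were GSTM3 (adjusted p = 0.153), GSTP1 (adjusted p = 0.23), GSTA1 (adjusted p = 0.253) and MT2A (adjusted p = 0.257). No member had an adjusted p under 0.05, and 34 of all probes did (0.158%).

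GSTM3 had the widest range of cow means, from 12.06 in cow 2 to 13.15 in cow 1, a log2 range of 1.09. The SD of its 4 cow means was 0.45, against a within-cow SD of 0.14. For GSTP1 these were 0.33 and 0.12, with cow 2 at 14.70 and the other cows at 15.31 to 15.40. GSTA1 ran from 14.27 in cow 4 to 14.92 in cow 1, and MT2A from 10.76 in cow 3 to 11.39 in cow 1. No cow was highest or lowest in all members. Over the 8 arrays GSTP1 and GSTM3, both lowest in cow 2, had an r of 0.75, while GSTA1 and GSTO1, which cow 1 placed at opposite ends, had an r of -0.53. These r are descriptions over 8 arrays that share 4 cows. The cow F test of GSTM3 kept its unadjusted p under 0.05 in all of the other settings run, which were 2 scalings or background corrections, the deposited table and each array left out. The other members did not keep it throughout. GSTP1 lost it without either array of cow 2, GSTA1 without any array of cows 1, 2 or 4, and MT2A with most arrays left out. Without either array of cow 3, GCLM stood in place of MT2A among the members under 0.05. The count of 4 members ranged from 1 to 6 over the same settings and fell to 1 without the HC array of cow 2.

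**Figure D3:**
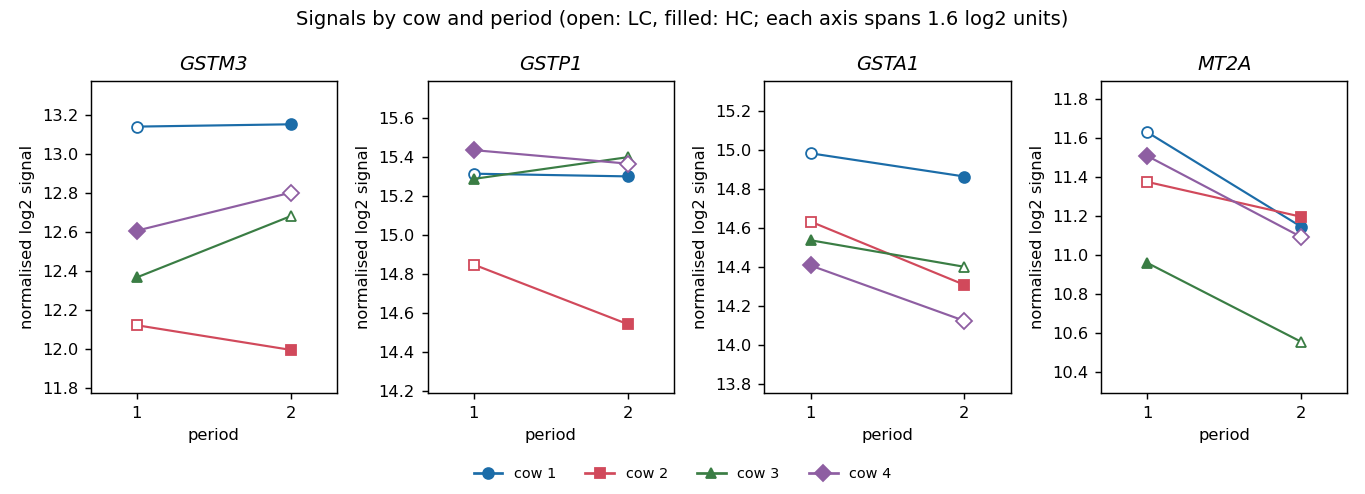
Normalised log2 signal (y axis) of GSTM3, GSTP1, GSTA1 and MT2A in periods 1 and 2 (x axis), with a line per cow, open points for LC and filled points for HC. The GSTM3 lines keep cow 1 on top and cow 2 at the bottom, and the MT2A and GSTA1 lines fall from period 1 to period 2 in all 4 cows.

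Between the periods, no member passed the call rule, which 828 probes did (3.86%, with 0.0419% of all probes at an adjusted p under 0.05), and none of the members separated the periods without overlap, which 7.48% of probes did. MT2A was lower in period 2 in 4 of 4 cows, by a log2 difference of -0.48, -0.18, -0.40 and -0.42 in cows 1 to 4. It was 10.96 to 11.63 in period 1 and 10.55 to 11.19 in period 2, so that the periods overlapped. The difference was -0.37 (1.29-fold, limma p = 0.0826, exact permutation p = 0.143 over the arrays of each period). The cow as a block gave an unadjusted p under 0.05 and an adjusted p of 0.217 in limma. Of all probes 12.3% were lower in period 2 in all 4 cows, and 15.7% had p under 0.05 in the fit with the block. GSTA1 was also lower in period 2 in 4 of 4 cows, by -0.22 on average (limma p = 0.235, exact permutation p = 0.314). The other 6 members moved both ways among the cows.

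Among the members, MT2A and MGST3 had the highest r with a measure of the whole array. Over the 8 arrays the r with the percentage of probes well above background was 0.80 for MT2A and 0.81 for MGST3, and from -0.44 to 0.37 for the other 6 members. The LC array of cow 3 was lowest in all of these, with 10.55 for MT2A, 16.89 for MGST3 and 76.9% of probes. The arrays share cows, and the share of all probes with an r this high was not computed. The part of this in the difference of MT2A between periods was not tested.

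The contrast of cows 1 and 2 with cows 3 and 4, which is what the interaction of diet and period measures in this crossover, was called for no member and for 629 probes (2.93%, with 0.0373% at an adjusted p under 0.05). Its largest value among the members was that of GCLM, -0.58 (limma adjusted p = 0.557). Without the HC array of cow 3 both this contrast of GCLM, at -0.92 (limma adjusted p = 0.239), and its period difference, at -0.62 (limma adjusted p = 0.197), passed the call rule.

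The spread of the members over the 8 arrays ran from an SD of 0.10 for MGST3 to 0.51 for GCLM, with a median of 0.20 over the 16030 probes above background throughout. GSTM3 followed with 0.43, then MT2A with 0.34, GSTP1 with 0.32, GSTA1 with 0.29, GSTO1 with 0.23 and GSTM1 with 0.23. Among 6468 named genes well above background on all arrays, the 5 closest to GCLM in pattern were KDR (r = 0.93), TMSB10 (0.93), HERC6 (0.92), PRKRIP1 (0.91) and UBA7 (0.91). Without the HC array of cow 4 these r were 0.76, 0.87, 0.50, 0.85 and 0.36. That array was the highest of the 8 for all 5. HERC6, a gene induced by interferon, was 9.05 there and 5.31 to 6.70 on the other arrays, and UBA7, the activating enzyme of ISG15, was 11.59 there and 9.25 to 9.79 on the others. KDR is an endothelial receptor, and was 9.63 there and 8.53 to 9.08 on the others. Of the endothelium markers that did not enter through their pattern, CLDN5 was 6.33 there and 5.61 to 6.24 on the others, and TEK was 8.14 there, inside its range of 7.83 to 8.32 on the others. The part of any of these in the GCLM value was not tested.

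The 5 genes closest to MT2A in pattern were FBXL14 (r = 0.97), INPP5D (0.96), RAB2A (0.96), GNA15 (0.96) and NRSN2 (0.96), over 8 arrays. In each of these the LC array of cow 3 was the lowest of the 8, as in MT2A. The genes were chosen for their r with MT2A, so a shared lowest array adds little to that choice. Their r without this array was not computed. The r of MT2A with MGST3 was 0.71.

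Genes of the same pathways were described beside the members, from 4 lists of 117 different genes, of which 64 had a probe. GCLC and SLC7A11 stand in both the synthesis list and the NRF2 list. None was called for diet. The list of other glutathione transferases had a probe for 8 of 18 genes, with 6 differences above 0 and 2 below and a median of 0.07. The list of glutathione synthesis, recycling and use had 23 of 36, with a median of 0.02, the NRF2 list 18 of 28, with 0.03, and the list of metallothioneins, zinc and copper handling 15 of 37, with -0.04. The catalytic partner of GCLM, GCLC, and glutathione synthetase, GSS, were not matched by a probe. The brightest gene of each list was MGST2, GPX1, FTH1 and ATOX1, in this order, with a diet difference of 0.09, 0.05, 0.03 and 0.04 (log2) and no call.

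**Figure D4:**
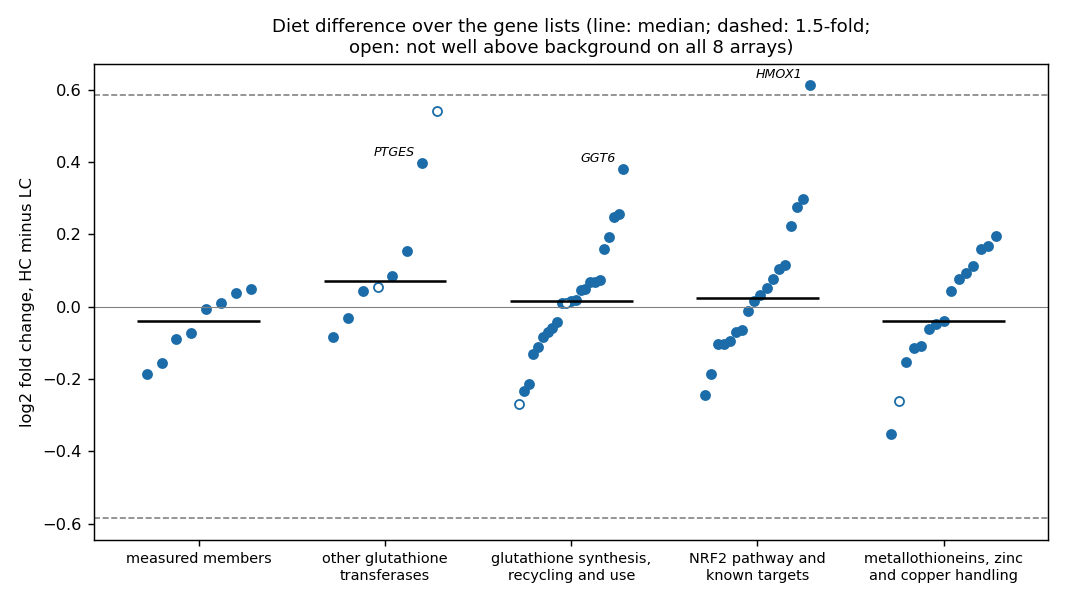
Log2 difference HC minus LC (axis) of every gene with a probe in the members and the 4 related lists, with the list median as a line and open points for genes not well above background on all 8 arrays. The medians lie between -0.04 and 0.07, and no gene well above background on all arrays lies beyond 1.5-fold except HMOX1, at 0.61.

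The genes named from here on were chosen after their values were seen. HMOX1, heme oxygenase 1 and a known NRF2 target, was 10.83, 11.34, 10.03 and 10.85 on LC and 11.99, 10.96, 11.29 and 11.27 on HC in cows 1 to 4. In 3 of the 4 cows HC was the higher, and the diets overlapped, with means of 10.76 ± 0.54 and 11.38 ± 0.43 (SD, n = 4) and a log2 difference of 0.61 (SE 0.29, limma p = 0.0796, exact permutation p = 0.114). HMOX1 passed the call rule without the LC array of cow 4, at 0.82 (limma adjusted p = 0.91). It also did without the HC array of cow 2, at 0.87 (limma adjusted p = 0.958), and cow 2 is the cow in which HC was the lower. In no other setting was HMOX1 called.

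GGT6, a member of the gamma-glutamyltransferase family, which splits glutathione outside the cell, was the only one of the 64 related genes whose diet difference had an unadjusted limma p under 0.05. It was 10.28, 10.02, 10.34 and 10.30 on LC and 10.93, 10.69, 10.33 and 10.54 on HC in cows 1 to 4. Its log2 difference was 0.38 (SE 0.11, limma p = 0.0145, exact permutation p = 0.0571), below the fold limit, with 3 of 4 cows higher on HC.

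In 2 of the 64 related genes the diets did not overlap, against 1.6% of all probes. Without overlap, all 4 cows must move the same way and the exact permutation p must be its smallest, so neither adds to the overlap count. HAGH, the glyoxalase that releases glutathione from lactoylglutathione, was 11.82, 11.93, 11.92 and 11.83 on LC and 11.66, 11.76, 11.81 and 11.81 on HC in cows 1 to 4. Its log2 difference was -0.11 (SE 0.08, limma p = 0.229, exact permutation p = 0.0286, the smallest this test can give). SLC31A2, a copper transporter, was 12.75, 12.66, 12.71 and 12.61 on LC and 13.05, 12.87, 12.75 and 12.83 on HC. Its log2 difference was 0.19 (SE 0.09, limma p = 0.0733, exact permutation p = 0.0286). The limma adjusted p of both was 0.9995.

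None of the following regulators and targets passed the test for diet. The log2 difference between the diets was 0.12 for NFE2L2 (exact permutation p = 0.543), 0.02 for KEAP1 (p = 0.8) and -0.05 for MTF1 (p = 0.343). It was -0.25 for NQO1, a quinone reductase and known NRF2 target (exact permutation p = 0.429), and 0.22 for TXNRD1, thioredoxin reductase (p = 0.286). The neighbour of MT2A with a probe, MT3, was 9.49, 9.35, 8.62 and 9.17 on LC and 9.37, 9.02, 8.99 and 9.62 on HC in cows 1 to 4. Like MT2A, it was lowest on the LC array of cow 3, and its log2 difference between the periods was -0.31 (limma p = 0.166, exact permutation p = 0.229).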

How the data were processed

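Rumen papilla RNA of 4 cows on both diets was hybridised to 8 single-colour bovine arrays, grouped by the diet in the labels, with the period from the labels and the study's description of the crossover. The authors deposited, per array, the scanner output of Feature Extraction 10.7.3.1, with a background-subtracted intensity per spot and no normalisation between arrays, and a table of log2 values that they had quantile-normalised. Of 44407 spots 42990 are not controls, and they belong to 21475 probes. Control spots and 0 to 13 outlier spots per array were left out, log2 intensities were quantile-normalised (limma 3.58.1, R 4.3.3), and then the mean over the spots of each probe was taken. Dim probes were kept. The lowest and highest share of probes well above background was 76.9 and 81.2%, and the number of arrays limits the precision. Of 10176 probes with a RefSeq accession, 8297 were named through the ARS-UCD2.0 gene table; positions are not given, since the array's annotation is of another build.

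The limma model had diet, period and the interaction as terms (eBayes without trend, not robust), with 4 residual degrees of freedom, 2.26 prior ones and a prior SD of 0.182. Every p named limma comes from a fit over all probes, with Benjamini-Hochberg adjustment over the 21475 probes. The interaction is coded as cows 1 and 2 minus cows 3 and 4. Permutation tests were exact and two-sided over the arrays (scipy 1.17.1, Python 3.11.15, pandas 2.3.3, matplotlib 3.10.9). The fit was tested on simulated data. The labels pair the arrays by cow. As a check, the deviations from the diet means were correlated over the 16030 probes above background on all arrays: the r of the 2 arrays of a cow was 0.285, 0.298, 0.467 and 0.113 in cows 1 to 4, and -0.237 to 0.185 between cows.

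All 10 members are named, and by rule, of each related list, the brightest gene and the genes called for diet, of which there were none. HMOX1 and the related genes described after it are outside this rule and were chosen after their values were seen. For pattern, the 5 most similar genes are given for the member of largest SD and for MT2A. The members and lists were chosen with earlier results of these data known. Alternatives were other scalings, normexp with an offset of 50 on the median spot signal (the files used here hold no mean signal), the deposited table, a filter, other models, the cow as a block and each array left out. The other data types of the study are not analysed here.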

Additional observations from a re-analysis of the deposited data

Results flagged for a closer look

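Arrays that stood apart from the other 3 of their diet were looked for in the 8 measured genes on each diet, 16 groups of 4 arrays, by the gap to the nearest array over the whole range, against the 95% critical value of Dixon. Of these, 3 groups passed it. The nominal rate of about 5% of groups holds for independent values, while the 4 arrays of a diet span both periods. The share of groups flagged among all probes was not computed, so whether 3 of 16 is unusual here is not known. GSTP1 was lowest in cow 2 on LC, with a gap of 0.846 of the range, and lowest in cow 2 on HC, with 0.834. These are 2 arrays of the same cow in different periods. GCLM was highest in cow 4 on HC, with 0.833.

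The diet difference of 2 genes had opposite signs in cows 1 and 2, which had LC first, and in cows 3 and 4, which had HC first. In this crossover the test of that difference is the test of period. Both genes were thus lower in period 2 in all 4 cows, as were 12.3% of all probes. The share of probes higher in period 2 in all 4 cows was not computed. For MT2A the log2 difference of period 2 minus period 1 was -0.37 (limma p = 0.0826, exact permutation p = 0.143), and for GSTA1 it was -0.22 (limma p = 0.235, exact permutation p = 0.314), both from tests without the pairing by cow. With the cow as a block, the unadjusted p of limma was under 0.05 for MT2A (adjusted p = 0.217) and not for GSTA1 (adjusted p = 0.361).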

How the results depend on the processing

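The count of members called for diet was 0 in each of the 19 other settings. With the filter on dim probes, the other models and the mean of all probes of a gene, each member kept its log2 difference of the main fit. All of these lie below the fold limit, so no member could be called there. Only the other scaling and background correction, the deposited table and the arrays left out could have changed this count. With the cow as replicate block the count of members called was also 0 for diet and for period. The block leaves the log2 differences as they are, and those of the members all lie below the fold limit. The pairing thus could not change a call of a member. It did change p values, with limma p for diet of GSTM3 at 0.645 without and 0.14 with the block. For the period difference of MT2A the limma p was 0.0826 without and 0.0153 with it. Over all probes the block raised the count called for diet to 276, and to 290 with the cow as a random block. The count of all probes called for diet, 198, was 8 with normexp, 415 with the deposited table, 83 with the filter on dim probes and 105 without moderation, and 239 to 404 with 1 array left out. Of related genes, 1 was called with the deposited table (GSTA2, well above background on 2 of the 8 arrays) and 0 to 1 with 1 array left out (HMOX1). With 1 array left out, 0 to 1 members were called for period and 0 to 1 for the interaction, in both cases GCLM without the HC array of cow 3. The count of members with a cow F test under 0.05 was 1 to 4 in these settings.

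The small diet differences changed sign with single arrays. The log2 difference ran from -0.19 to 0.20 for GSTM1, -0.14 to 0.13 for GSTA1, -0.28 to 0.10 for GSTP1, -0.29 (without the HC array of cow 4) to 0.38 (without that of cow 3) for GCLM, -0.44 to 0.13 for GSTM3 and -0.10 to 0.18 for MT2A. It kept its sign for GSTO1, from -0.27 to -0.11, and MGST3, from -0.12 to -0.03. GSTM1 was also -0.0086 with scaling to the 75th percentile, and GSTA1 was 0.0146 with normexp. Outside the left-out arrays, 1 member reached an unadjusted p under 0.05 for diet without the fold limit, MGST3 with normexp, at -0.15 (limma adjusted p = 0.9992). The cause was not tested.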
